A study of Mus musculus with 9 samples.

Results

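Tropomyosins are coiled-coil proteins that lie along actin filaments and set which other proteins reach the filament. The mouse genes *Tpm1*, *Tpm2*, *Tpm3*, and *Tpm4*, together with *Tpm3-rs7*, a copy of *Tpm3* without introns, were chosen by symbol and make up 5 of the 31053 genes counted. Earlier results from the same data were known when the set was drawn up, among them the difference in *Tpm3-rs7* between the strains. The levels of *Tpm3-rs7* by strain are therefore given below as a description, without a test.

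The study asked which bone marrow cells and genes set the NZBWF1 mouse, which develops a disease like systemic lupus, apart from its parents. Femur marrow was taken from 9 female mice of 9 to 10 weeks of age, 3 each of the New Zealand strains NZB (Black) and NZW (White) and of their F1 hybrid NZBWF1, with no treatment in any group. Both femurs of a mouse were flushed, red cells were lysed, and 1 library per mouse was made with the 10x Chromium 3′ v3.1 kit, in which each molecule captured near its 3′ end is counted once by its unique molecular identifier (UMI). The strains are inbred lines and their hybrid, so each group is 1 genotype and the mouse is the replicate. After the quality limits 39051 of 68444 barcodes were kept, with 8106539 to 18663189 UMIs per mouse and a median of 2182 to 2536 UMIs per cell. The 3 NZB medians, 2410 to 2536, were above the 6 others, 2182 to 2314. Levels are in CPM, the UMIs of a gene over all UMIs of the same cells on the usual counts-per-million scale, and since only 3′ ends were counted they were not divided by gene length.

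Each kept cell was placed in a class by marker genes, none of them a tropomyosin, and 36581 cells took 1 of 18 classes. A class name stands for cells that look like that type by these markers, because no protein was measured. In all 18 classes the 10 leading genes held more of the class's own markers than of any other class, such as *Trbc2* and *Cd3e* in T cells, *Elane* and *Mpo* in granulocyte-monocyte precursors, and *Hbb-bt* and *Alas2* in erythroblasts. In 15 classes every mouse had at least 10 cells, and these are the classes compared here. A total of 885 cells (2.27%) carried the markers of unlike lineages and were set aside. Any 2 libraries shared 1 to 12 of the kept cell barcodes.

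In mammals the tropomyosin genes give many isoforms through alternative promoters and exons. Muscle uses some of them in the sarcomere, whereas cells outside muscle use others on their cytoskeletal filaments. In the red cell membrane, products of *Tpm1* and *Tpm3* lie along short actin filaments that tropomodulin 1 caps, and *Tpm4* is known for its part in the shaping of platelets by megakaryocytes. A retrocopy such as *Tpm3-rs7* arises when a messenger RNA is copied back into the genome, and it starts out with the sequence of its parent's transcript.

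On the mouse build mm10, with the gene models of GENCODE vM21, *Tpm3* (ENSMUSG00000027940) lies on the plus strand at chr3:90072649-90100902 and has 16 transcripts of 2 to 10 exons. *Tpm3-rs7* (ENSMUSG00000058126) lies on the plus strand at chr14:113314608-113316754 as a single exon that is annotated as a protein-coding retrogene. *Tpm1* (ENSMUSG00000032366) is at chr9:67022590-67049406 and *Tpm2* (ENSMUSG00000028464) at chr4:43514711-43523765, both on the minus strand, and *Tpm4* (ENSMUSG00000031799) is at chr8:72134975-72153142 on the plus strand. The 5 genes are thus on 5 different chromosomes.

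The transcript of *Tpm3-rs7* is 2147 bases long, and 2103 of them align with the *Tpm3* transcript Tpm3-201, with 2089 bases (99.3%) identical, 14 substitutions, and 3 gaps. 1 substitution falls in the 5′ UTR, 3 in the coding sequence, and 10 in the 3′ UTR. The coding sequence holds 248 codons before its stop with 0 earlier stop codons, and 2 of the 3 coding substitutions change the residue. Positions are counted from 1 at the 5′ end of Tpm3-201, with the base of *Tpm3* first and that of *Tpm3-rs7* second, and the coding substitutions are then G264A, G290A, and G319A. They fall within 1 stretch of 86 bases, which is shown here because it holds every coding difference of the pair (capitals mark the bases that differ). Bases 249 to 334 of Tpm3-201 are printed first and chr14:113314732-113314817, plus strand, of mm10 second.
Tpm3: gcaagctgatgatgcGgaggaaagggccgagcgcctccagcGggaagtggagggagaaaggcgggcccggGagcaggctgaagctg
Tpm3-rs7: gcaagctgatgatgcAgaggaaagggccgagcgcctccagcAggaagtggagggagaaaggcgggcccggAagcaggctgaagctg

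A read can be given to 1 of the pair only where it covers a base at which they differ. Of the 2048 windows of 100 bases along the *Tpm3-rs7* transcript, 1028 (50.2%) occur in none of the 16 *Tpm3* transcripts. In the last 500 bases, nearest to where 3′ libraries are read, 303 of 401 windows (75.6%) do so. The substitutions closest to the 3′ end are C2142T and T2163A, 129 and 108 bases from it. The sources used here do not give the length of the reads, and the reference is the genome of another strain, C57BL/6J, so a base that NZB or NZW carries at these sites could move reads between the pair. The counts of *Tpm3* and *Tpm3-rs7* are for this reason uncertain when read apart, and their sum is given beside them.

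*Tpm3* was the most abundant member with 30701 UMIs in kept cells, followed by *Tpm3-rs7* with 9777, *Tpm4* with 9328, *Tpm1* with 4088, and *Tpm2* with 366. *Tpm3-rs7* was a minor gene in NZW and near the level of *Tpm3* in NZB. Over all kept cells the 3 NZB mice had 172, 157, and 152 CPM of it, the 3 NZW mice 5.87, 6.73, and 5.86 CPM, and the 3 NZBWF1 mice 105, 76.4, and 84.3 CPM. The 3 strains did not overlap, and the lowest NZB mouse was far above the highest NZW mouse. *Tpm3* ran the other way, with 159.8, 182, and 206 CPM in NZB, 321, 297, and 314 CPM in NZW, and 201, 214, and 240.4 CPM in NZBWF1. Again the NZB and NZW mice did not overlap, whereas 1 of the NZB mice was above the lowest NZBWF1 mouse. Levels over all kept cells also move with the mix of classes, and fewer cells of a type cannot be told apart there from less RNA per cell. The pair summed to 343 ± 13.7 CPM (mean ± SD, n = 3) in NZB, to 317 ± 12.0 CPM in NZW, and to 307 ± 17.03 CPM in NZBWF1. The sum was thus 1.08 times as high in NZB as in NZW, against 0.589 times for *Tpm3* alone and 26.0 times for *Tpm3-rs7* alone.

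**Figure D1:**
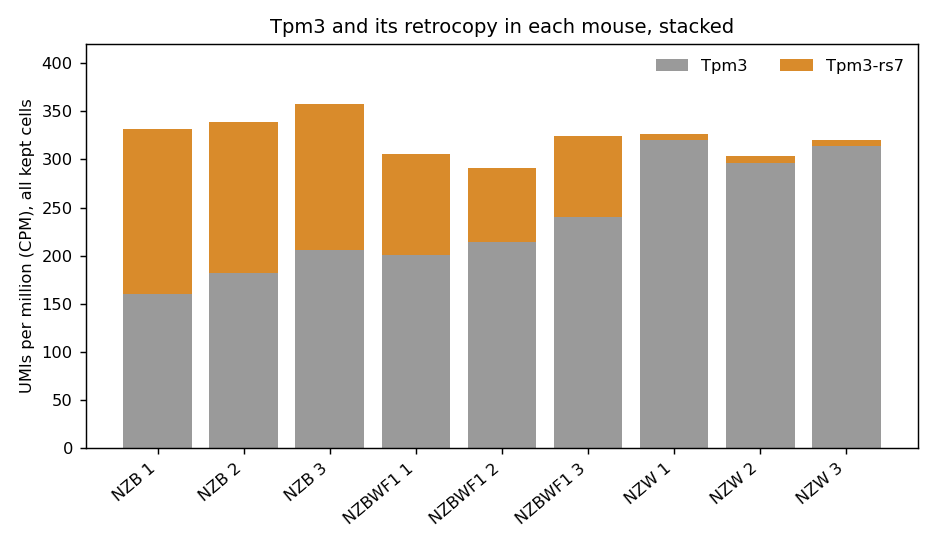
Level of *Tpm3* (grey) and *Tpm3-rs7* (orange) in all kept cells of each of the 9 mice, stacked, in CPM. The orange part is 152 to 172 CPM high in the NZB mice, 76.4 to 105 CPM in the NZBWF1 mice, and 5.86 to 6.73 CPM in the NZW mice, while the whole bars lie between 291 and 358 CPM.

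As a share of the UMIs of the pair, *Tpm3-rs7* made up 51.8, 46.3, and 42.5% for NZB, 1.799, 2.22, and 1.83% for NZW, and 34.4, 26.3, and 25.97% for NZBWF1. The mean of NZBWF1, 28.9 ± 4.75% (SD, n = 3), lay between those of the parents, 46.9 ± 4.70% and 1.95 ± 0.234%. In CPM, *Tpm3-rs7* in NZBWF1 (88.6 ± 14.8) stood 53.5% of the way from NZW to NZB, next to a mid-parent value of 83.2 CPM. NZBWF1 replicate 1 had the highest share of its strain and the fewest cells of it, 2566.

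The order NZB, NZBWF1, NZW held for the class means of *Tpm3-rs7* in all 15 classes, and no NZB mouse overlapped an NZW mouse in any of them. Among all genes of at least 10 CPM on average, taken class by class, 9.01% were higher in all NZB than in all NZW mice, and nothing is read from the member's count, since it was chosen for this difference. In monocytes, where *Tpm3-rs7* was highest in CPM, the NZB mice had 258, 257, and 251 CPM, the NZW mice 6.92, 12.3, and 6.72 CPM, and the NZBWF1 mice 145, 104, and 133 CPM. With the TMM scaling of the class fits it was higher in immature and mature neutrophils (log2 fold change 1.40 and 1.42 against the other classes) than in monocytes (0.53). In immature neutrophils, the largest class with 9945 cells, the values were 200.2, 170.2, and 176 CPM in NZB, 6.64, 8.59, and 8.58 CPM in NZW, and 118, 86.7, and 97.2 CPM in NZBWF1. In pro-B or pre-B cells they were 180.1, 142, and 149.7 CPM, 5.02, 4.23, and 7.08 CPM, and 104, 86.2, and 91.98 CPM in the same order. These classes are myeloid and lymphoid, and in each of them the strains were apart by more than the spread of their mice.

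The lowest levels were in the erythroid and plasma cell classes. Erythroid progenitors had 50.3, 53.4, and 57.5 CPM in NZB, 0.812, 2.86, and 2.29 CPM in NZW, and 27.7, 25.3, and 22.4 CPM in NZBWF1. In erythroblasts the NZB mice had 39.4, 51.02, and 7.74 CPM, and the NZB mouse with the lowest value there rested on 2 UMIs. T cells of the 3 NZW mice held 0 UMIs of *Tpm3-rs7* in 186 cells and 327364 UMIs. The floor of 3 UMIs over the strain is 9.16 CPM, and the NZB mean of 191 CPM in T cells was at least 20.8-fold higher. Such floors cover counting error only.

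The share of *Tpm3-rs7* in the pair varied less between classes than between strains. Strain means ran from 33.7% in erythroblasts to 57.0% in macrophages in NZB, with a median of 47.8% over the classes, and from 22.2% in basophils or mast cells to 32.3% in plasmacytoid dendritic cells in NZBWF1, with a median of 29.2%. In NZW they ran from 0% in T cells to 7.56% in basophils or mast cells, with a median of 1.92%, and the highest of them rested on 4 UMIs of *Tpm3-rs7*. The place of NZBWF1 between the parents was 42.0% to 68.2% of the way from NZW to NZB, with a median of 53.3%. This holds for CPM. On the log2 scale of the fits *Tpm3-rs7* in NZBWF1 was above the mean of its parents' logs by 1.41 over all kept cells, and at -0.98 against NZB. A mean of logs lies below the log of the mid-parent CPM when the parents differ, so this does not conflict with the place in CPM. NZB replicate 1 and NZBWF1 replicate 1 each had the highest share of their strain in 10 of the 15 classes.

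**Figure D2:**
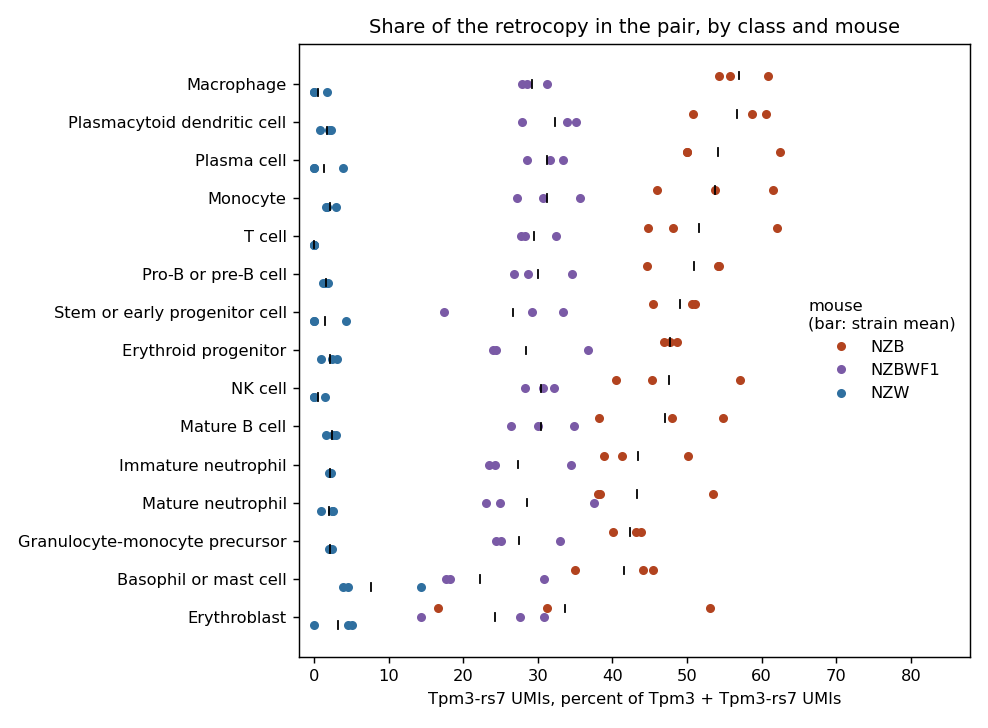
Share of *Tpm3-rs7* in the UMIs of *Tpm3* and *Tpm3-rs7* together, in percent, for each mouse (points, coloured by strain) in the 15 classes, with the mean of the 3 mice of a strain as a black bar. NZW points lie between 0% and 14.3%, NZBWF1 points between 14.3% and 37.6%, and NZB points between 16.7% and 62.5%, and the strain means keep the same order in each class.

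Seen by cell, 1992 NZB cells held both transcripts, 2510 held *Tpm3* without *Tpm3-rs7*, and 2141 held *Tpm3-rs7* without *Tpm3*, of 10847 kept cells. Of 14402 NZW cells the numbers were 192, 7950, and 89, and of 13802 NZBWF1 cells 1734, 4538, and 1399. The percent of kept cells with a UMI of *Tpm3-rs7* was 38.7 ± 2.67 (SD, n = 3) for NZB, 1.94 ± 0.151 for NZW, and 23.3 ± 2.81 for NZBWF1. After every cell was thinned to 1000 UMIs these were 16.1, 0.722, and 9.55, so the order was the same at equal depth. In barcodes with fewer than 100 UMIs, which hold free RNA, the share of the pair was 47.0% to 55.2% in the NZB libraries, 2.38% to 4% in NZW, and 26.8% to 38.5% in NZBWF1. At the mean load of these barcodes free RNA would add 0.000377 UMIs of *Tpm3-rs7* per cell in NZB replicate 1, the highest library. This is a mean over all such barcodes and no upper limit.

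*Tpm3* read apart from its copy was lower in NZB than in NZW. Across the 15 classes the NZB mean was below the NZW mean in 15, without overlap of the mice in 14, and 12.6% of all genes were lower in this way. The copy was chosen for its strain difference and reads could move between the pair, so this count is not independent of that choice. In plasmacytoid dendritic cells, which make type I interferon, *Tpm3* was at 151, 119, and 155 CPM in NZB, 402, 335, and 389.96 CPM in NZW, and 178, 214, and 218 CPM in NZBWF1, and the 3 strains did not overlap. The log2 fold change of NZB against NZW was -1.37 ± 0.13 (SE), adjusted p = 4.51e-13 (edgeR quasi-likelihood test, Benjamini-Hochberg over all genes of the class). In pro-B or pre-B cells it was -1.21 ± 0.15 (SE), adjusted p = 5.14e-07 (edgeR), from 152, 121, and 186 CPM in NZB and 345, 337, and 367 CPM in NZW. Both of these kept the call under every alternative run, but reading the pair as a sum was not among those run by class. The sum in plasmacytoid dendritic cells was 365, 301, and 314 CPM in NZB. In NZW it was 411, 337, and 398 CPM, so the mice overlapped, and the sums of pro-B or pre-B cells are given below. The test over all kept cells kept the call too, as long as *Tpm3* was read apart from its copy, at -0.67 ± 0.11 (SE), adjusted p = 0.000837 (edgeR), where 19.2% of all genes passed.

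The 4 tropomyosin genes other than the copy gave 35 tests of NZB against NZW over gene and class, and 16 passed an adjusted p of 0.05 by edgeR, 3 higher and 13 lower in NZB. Over all genes and the same classes 8.98% of the tests passed, 4.46% higher and 4.52% lower. By gene, *Tpm4* passed in 3 of 9 classes, *Tpm1* in 2 of 10, and *Tpm2* in 0 of 1, and the other calls were of *Tpm3*. The calls of *Tpm3* are not independent of the choice of its copy for a strain difference, so nothing is read from their number. *Tpm3* fell in 11 of 15 classes. Beside the 2 classes above these were T cells (-1.10 ± 0.28 on the log2 scale), NK cells (-0.97 ± 0.21), mature B cells (-0.92 ± 0.20), plasma cells (-1.12 ± 0.36), granulocyte-monocyte precursors (-0.70 ± 0.11), immature neutrophils (-0.46 ± 0.12), monocytes (-0.83 ± 0.14), macrophages (-1.05 ± 0.27), and erythroid progenitors (-0.60 ± 0.13). In mature neutrophils, basophils or mast cells, erythroblasts, and stem or early progenitor cells the change was -0.34 ± 0.20, -0.57 ± 0.30, -0.41 ± 0.28, and -0.77 ± 0.26 and did not pass. Leaving out 1 mouse ended the call in immature neutrophils (adjusted p = 0.0729 without NZB replicate 1 and 0.0591 without NZW replicate 3, edgeR) and in NK cells (0.0868 without NZB replicate 1). The same held for T cells (0.0501 to 0.309 without NZB replicate 1 or 3 or NZW replicate 2), macrophages (0.0607 to 0.201 without NZB replicate 1 or 2 or NZW replicate 2 or 3), and plasma cells (0.0543 to 0.269 without any mouse other than NZW replicate 3). In mature B cells *Tpm3* did not pass with at least 2000 UMIs and 1000 genes per cell (-1.08, adjusted p = 0.0745, edgeR), nor in erythroid progenitors with at most 5% mitochondrial UMIs (-0.64, adjusted p = 0.206, edgeR), and neither fold was smaller than with all kept cells. *Tpm3-rs7* was higher in NZB without overlap in all 15 classes, also in those where *Tpm3* did not pass, so this does not set the classes apart. Its part in the fall of *Tpm3* was not tested.

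The sum of the pair does not change when reads are divided otherwise between them. It leaves out reads that cover no base at which they differ, and whether the number of those differs by strain was not tested. By class it was higher in NZB than in NZW in 9 and lower in 6, and the mice of the strains did not overlap in 3, which is near the background of 9.01% of all genes higher and 12.6% lower without overlap. It was higher without overlap in granulocyte-monocyte precursors, with 366, 377, and 427 CPM in NZB and 365, 354, and 326 CPM in NZW, and in erythroid progenitors, with 107, 109.7, and 121 CPM and 87.7, 95.05, and 96.4 CPM. It was lower without overlap in pro-B or pre-B cells, with 332, 263, and 336 CPM in NZB and 349.98, 341, and 375 CPM in NZW. The ratio of NZB to NZW ranged over the classes from 0.542 in plasma cells to 1.32 in erythroblasts, whereas that of *Tpm3* alone ranged from 0.260 in plasma cells to 0.865 in erythroblasts. These ratios are of CPM, scaled by total UMIs. In plasma cells the log2 fold change of *Tpm3* was -1.92 with this scaling and -1.12 with the TMM factors of the fits, so the size of the low end for *Tpm3* rests on the scaling. The sum was not fitted. The mean of NZBWF1 lay between those of the parents in 5 of 15 classes for the sum and in 15 of 15 for each of the pair.

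*Tpm4*, whose product is found on stress fibres and in podosomes, was higher in NZB than in NZW in 3 of the 9 classes tested, monocytes and mature and immature neutrophils. In monocytes its level was 197, 209.8, and 195 CPM in NZB, 156, 161, and 164 CPM in NZW, and 164, 142, and 141 CPM in NZBWF1, so that all NZB mice were above the other 6. The log2 fold change of NZB against NZW was 0.35 ± 0.10 (SE), adjusted p = 0.0116 (edgeR), and that of NZBWF1 against NZB was -0.49 ± 0.11 (SE), adjusted p = 0.00174 (edgeR). In mature neutrophils the NZB mice had 171, 135, and 218 CPM and the NZW mice 119, 103, and 129.7 CPM, without overlap, at a log2 fold change of 0.86 ± 0.19 (SE), adjusted p = 0.00747 (edgeR). In immature neutrophils the levels were lower and overlapped, 26.4, 27.1, and 38.8 CPM against 15.9, 14.6, and 28.2 CPM, at a log2 fold change of 0.81 ± 0.20 (SE), adjusted p = 0.00728 (edgeR).

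The calls of *Tpm4* in neutrophils depended on how cells were kept and placed. With at least 2000 UMIs and 1000 genes per cell the log2 fold change of NZB against NZW was 0.06 in mature and 0.36 in immature neutrophils, and neither passed. With Leiden clusters in place of the gates it was -0.27 in immature neutrophils (adjusted p = 0.596, edgeR). Without NZB replicate 3, the highest of its strain in both classes, the adjusted p was 0.0576 in mature and 0.0621 in immature neutrophils (edgeR). In monocytes the adjusted p without NZB replicate 2 was 0.0982, and with at least 2000 UMIs it was 0.304 (edgeR). NZB against NZBWF1 in monocytes passed under every alternative.

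Granulocyte-monocyte precursors showed a like order for *Tpm4*, with 63.7, 59.4, and 59.8 CPM in NZB, 40.6, 47.4, and 47.6 CPM in NZW, and 42.6, 41.1, and 37.3 CPM in NZBWF1. Here NZBWF1 against NZB passed, at -0.59 ± 0.15 (SE), adjusted p = 0.0112 (edgeR), and NZB against NZW did not, at 0.33 ± 0.14 (SE), adjusted p = 0.131 (edgeR). In the lymphoid classes tested, *Tpm4* passed in none, with log2 fold changes of NZB against NZW of -0.26 ± 0.16 in pro-B or pre-B cells, -0.18 ± 0.27 in mature B cells, 0.25 ± 0.39 in T cells, and 0.13 ± 0.23 in NK cells. Over all kept cells *Tpm4* was at 75.9 ± 1.75 CPM in NZB, 71.1 ± 5.45 CPM in NZW, and 77.6 ± 7.88 CPM in NZBWF1, and the difference of NZB and NZW did not pass (log2 fold change 0.19 ± 0.09 (SE), adjusted p = 0.197, edgeR).

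*Tpm1* differed between the strains in the erythroid classes. In erythroid progenitors it was at 49.3, 54.6, and 54.02 CPM in NZB, 75.5, 90.9, and 97.2 CPM in NZW, and 89.1, 59.9, and 54.2 CPM in NZBWF1. All NZB mice were below all NZW mice, and NZBWF1 replicate 1 was among the NZW values. The log2 fold change of NZB against NZW was -0.71 ± 0.13 (SE), adjusted p = 0.000318 (edgeR). In erythroblasts, where *Tpm1* was highest among the 15 classes, the NZB mice had 94.7, 57.02, and 69.7 CPM, the NZW mice 109.9, 134, and 129.5 CPM, and the NZBWF1 mice 125, 88.1, and 147 CPM, and NZB against NZW gave -0.90 ± 0.24 (SE), adjusted p = 0.0111 (edgeR). Without NZB replicate 2 the adjusted p in erythroblasts was 0.285 (edgeR), and it stayed above the threshold also without NZB replicate 3, NZW replicate 2, or NZW replicate 3. *Tpm1* passed between NZB and NZW in 2 of 10 classes, and with at most 5% mitochondrial UMIs it passed in neither of the 2, at -0.55 in erythroid progenitors (adjusted p = 0.288) and at a larger -1.43 in erythroblasts (adjusted p = 0.0815, edgeR).

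**Figure D3:**
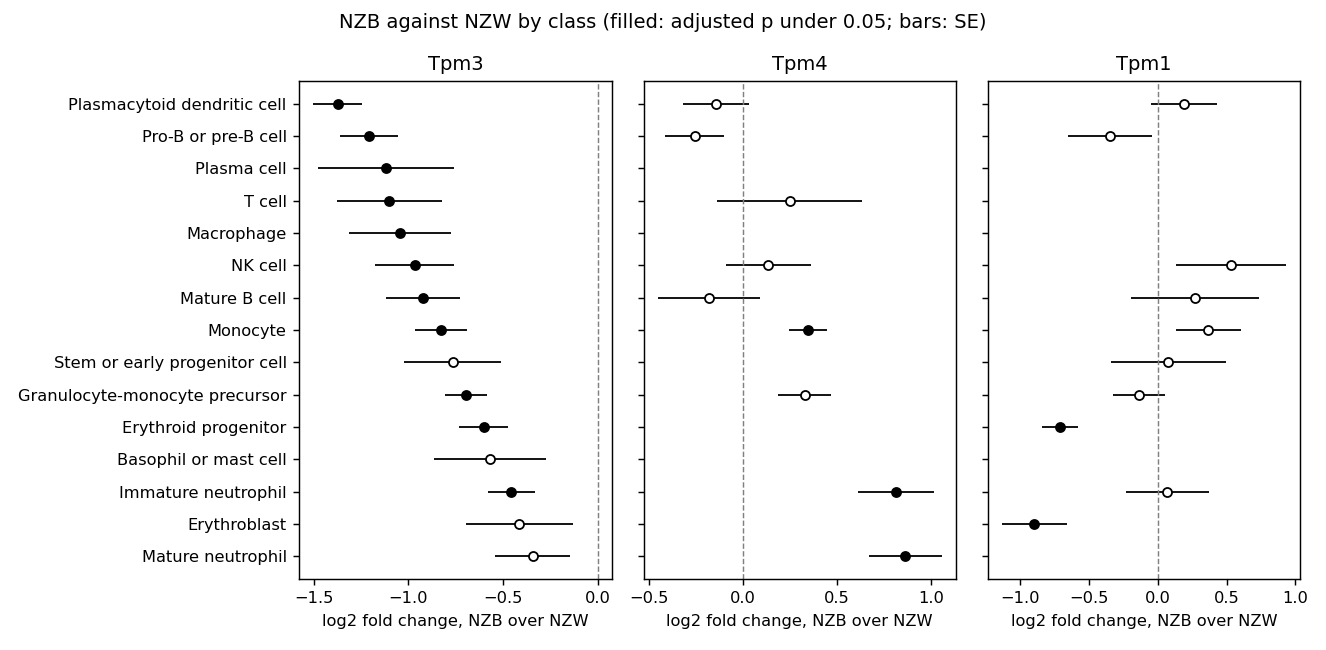
Log2 fold change of NZB against NZW (points) with its standard error (bars) for *Tpm3*, *Tpm4*, and *Tpm1* in each class with a test, from the edgeR fit of that class. Filled points have an adjusted p under 0.05: *Tpm3* is left of 0 in all 15 classes and filled in 11, *Tpm4* is filled right of 0 in monocytes and both neutrophil classes, and *Tpm1* is filled left of 0 in both erythroid classes.

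The hybrid was compared with the mean of its parents' logs and with each parent. Against the parents' mean, 0 of the 35 tests of *Tpm1* to *Tpm4* passed by edgeR, where 0.476% of all tests passed. Of the 35, 4 had an unadjusted p under 0.05 (edgeR), and the share of all genes at that threshold is not given here. DESeq2 also called 0, whereas Leiden clusters in place of the gates gave 2 calls and leaving out NZB replicate 1 gave 1. The smallest adjusted p was 0.0750, for *Tpm4* in monocytes at a log2 fold change of -0.31 (edgeR). Against NZB 3 tests passed, beside a background of 3.77%, namely *Tpm4* in the 2 classes above and *Tpm3* in plasmacytoid dendritic cells at 0.54 ± 0.13 (SE), adjusted p = 0.00803 (edgeR). Against NZW 5 passed, all lower in NZBWF1, beside 1.12% of all tests and 0.461% lower. They were *Tpm3* in plasmacytoid dendritic cells (-0.83 ± 0.13 on the log2 scale), mature B cells (-0.78 ± 0.16), pro-B or pre-B cells (-0.71 ± 0.12), and granulocyte-monocyte precursors (-0.48 ± 0.11), and *Tpm1* in erythroid progenitors (-0.50 ± 0.13). Leaving out 1 mouse ended the call of *Tpm4* in granulocyte-monocyte precursors (adjusted p = 0.0596 to 0.0657 without NZB replicate 2 or NZBWF1 replicate 2 or 3, edgeR) and that of *Tpm3* in plasmacytoid dendritic cells against NZB (0.0856 to 0.166 without the same mice). Against NZW it ended those of *Tpm3* in mature B cells (0.1003 without NZW replicate 1) and granulocyte-monocyte precursors (0.0658 without NZW replicate 1 and 0.158 without NZBWF1 replicate 2), and that of *Tpm1* (0.213 to 0.351 without NZW or NZBWF1 replicate 2 or 3). Against NZW *Tpm3* also did not pass in plasmacytoid dendritic cells with at least 2000 UMIs (-0.79, adjusted p = 0.248) or with at most 5% mitochondrial UMIs (-0.48, adjusted p = 0.725, edgeR), nor did it in mature B cells under either limit (-0.64 and -0.62). These comparisons share mice, and so do not support each other. The calls of *Tpm3* among them are also not independent of the choice of its copy for a strain difference.

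*Tpm2*, best known from skeletal and smooth muscle, was near the limit of counting. Its 366 UMIs included 144 in plasmacytoid dendritic cells, where its mean of 28.8 ± 12.4 CPM (SD, n = 9 mice) was the highest of the 15 classes. There the NZB mice had 33.3, 15.1, and 17.5 CPM, the NZW mice 34.3, 26.7, and 52.3 CPM, and the NZBWF1 mice 21.3, 17.8, and 40.5 CPM, the parents overlapped, and NZB against NZW did not pass (log2 fold change -0.76 ± 0.35 (SE), adjusted p = 0.196, edgeR). No other class had enough *Tpm2* for a test. In granulocyte-monocyte precursors the NZB mice had 4.65, 3.03, and 3.29 CPM, and the NZW mice had 0 UMIs in 1106 cells, so that the NZB mean was at least 6.55-fold above the floor of 3 UMIs over the strain, 0.558 CPM. Mature B cells and erythroblasts held 0 UMIs of *Tpm2* in 1805 and 516 cells, which allows up to 0.982 and 0.908 CPM.

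Over all kept cells *Tpm2* was at 6.07, 3.77, and 2.28 CPM in NZB, 1.32, 1.65, and 2.14 CPM in NZW, and 1.604, 2.98, and 4.45 CPM in NZBWF1, with a log2 fold change of NZB against NZW of 1.30 ± 0.41 (SE), adjusted p = 0.0441 (edgeR). Leaving out NZB replicate 1, the highest, gave an adjusted p of 0.131, and without NZB replicate 2, NZBWF1 replicate 2, or any of the NZW mice it was 0.0552 to 0.13 (edgeR). Since *Tpm1* and *Tpm2* are also genes of muscle and stroma, 19 markers of stroma, bone, vessel, and muscle were summed. Their sum was 30.3 to 32.5 CPM in the NZB mice, 13.2 to 15.3 CPM in NZW, and 20.8 to 36.6 CPM in NZBWF1, with 12 to 15 of the 19 markers detected per mouse. Most of it was *Lepr* (758 UMIs), *Acta2* (618), and *Cxcl12* (512), while of the muscle genes *Ckm* had 47 UMIs, *Tnnt3* 41, and *Acta1* 3, and the myosins *Myh1* and *Myh4* were at 0. The sum moved with *Tpm2* between NZB and NZW, and its part in that difference was not tested. The mix of classes differed too. Plasmacytoid dendritic cells, which held 144 of the 366 UMIs of *Tpm2* and 485 UMIs of the summed markers, were 1325 of 10847 kept cells in NZB and 552 of 14402 in NZW, and within them *Tpm2* ran the other way (-0.76), a difference that did not pass. Plasmacytoid dendritic cells held 23, 14, and 11 UMIs of *Tpm2* in the NZB mice and 11, 11, and 20 in the NZW mice. The part of the class mix in the difference over all kept cells was not tested. By class the mean of *Tpm2* was higher in NZB in 10 and lower in 3 of 15, most of them on few UMIs.

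The patterns of the members over the classes were alike in part. Over the 15 class means *Tpm3* and *Tpm3-rs7* had a Pearson r of 0.981, and with *Tpm4* they had 0.675 and 0.671. *Tpm1* had -0.35 to -0.30 with these genes. In the 15 classes the mean of *Tpm1* was highest in erythroblasts (106 ± 30.7 CPM, SD, n = 9), followed by stem or early progenitor cells (71.9 ± 29.3 CPM), erythroid progenitors (69.4 ± 18.8 CPM), and NK cells (56.7 ± 22.6 CPM), and lowest in immature neutrophils (4.98 ± 0.916 CPM). *Tpm4* was highest in NK cells (178 ± 14.3 CPM), monocytes (169.9 ± 24.7 CPM), and mature neutrophils (142 ± 33.95 CPM), and lowest in erythroid progenitors (3.11 ± 1.19 CPM). The orders here are of CPM, scaled by total UMIs. In the TMM fits below *Tpm4* rose most in mature neutrophils (log2 fold change 2.60, against 1.68 in NK cells). There each gene of the *Tpm3* pair rose more in both neutrophil classes than in monocytes. The sum of *Tpm3* and *Tpm3-rs7* was broad, between 304 and 435 CPM in 12 classes with monocytes at the top (435 ± 49.7 CPM), and between 81.8 and 98.7 CPM in erythroid progenitors, plasma cells, and erythroblasts. Along these orders 0 of 14 pairs of neighbouring classes passed for *Tpm1*, for *Tpm4*, or for the sum after adjustment over the 14 (exact permutation of signs over the 9 mice, two-sided, smallest adjusted p that 1 pair can reach 0.0547). A pair that differed alone could therefore not pass. In 9 of 9 mice *Tpm1* was higher in plasmacytoid dendritic cells than in mature B cells. The sum was higher in stem or early progenitor cells than in erythroid progenitors, also in 9 of 9.

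**Figure D4:**
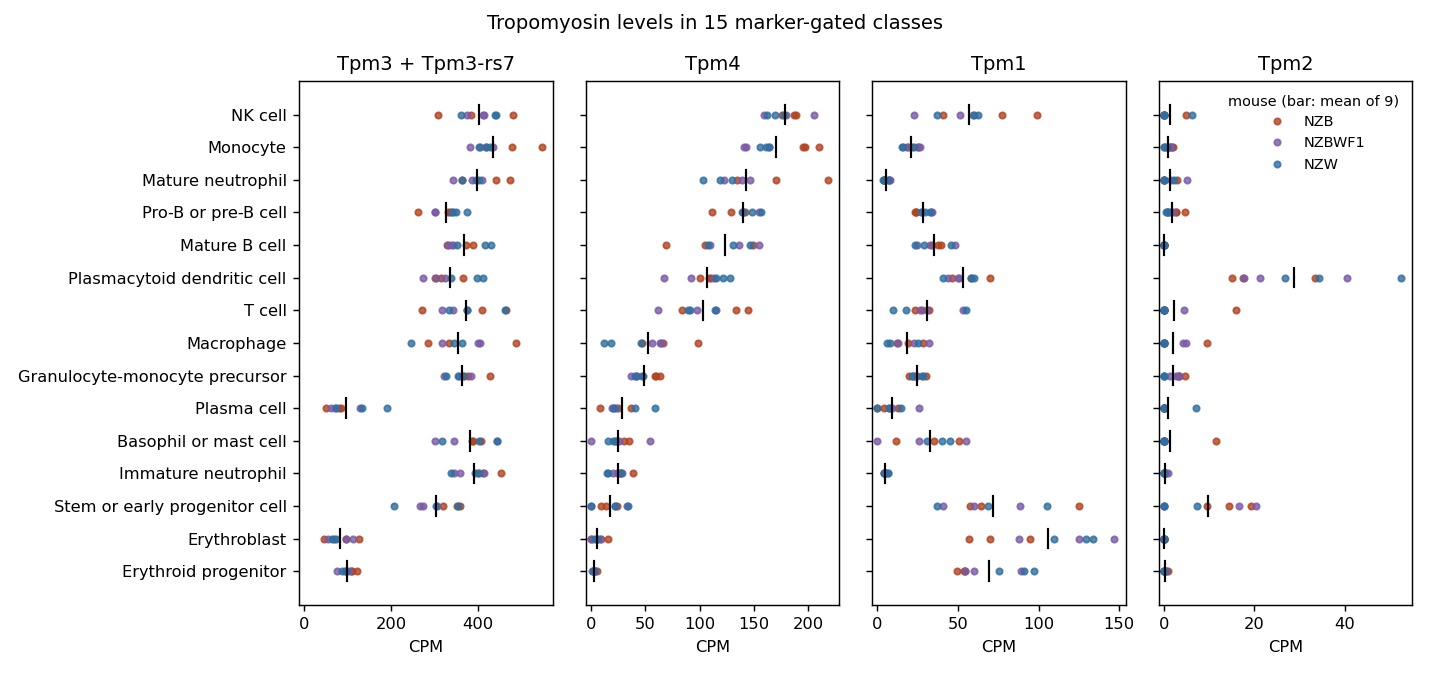
Level in CPM of the sum of *Tpm3* and *Tpm3-rs7*, of *Tpm4*, of *Tpm1*, and of *Tpm2* in 15 classes ordered by *Tpm4*, with 1 point per mouse coloured by strain and the mean of the 9 mice as a black bar. *Tpm4* falls from 178 CPM in NK cells to 3.11 CPM in erythroid progenitors, *Tpm1* is highest in erythroblasts (106 CPM), and *Tpm2* is highest in plasmacytoid dendritic cells (28.8 CPM).

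Each class was then tested against the mean of the others within mice, and 42 of 60 tests of *Tpm1*, *Tpm3*, *Tpm3-rs7*, and *Tpm4* passed by edgeR, where 55.6% of all tests passed, 30.2% higher and 25.4% lower. *Tpm2* had too few UMIs for this fit. *Tpm1* rose in erythroblasts (1.94 ± 0.12, log2 fold change ± SE), erythroid progenitors (1.17 ± 0.09), stem or early progenitor cells (1.03 ± 0.19), NK cells (0.70 ± 0.18), and plasmacytoid dendritic cells (0.63 ± 0.12). It fell in immature neutrophils (-1.71 ± 0.14), mature neutrophils (-1.62 ± 0.23), monocytes (-0.77 ± 0.12), and pro-B or pre-B cells (-0.37 ± 0.11), the last of which depended on scaling. *Tpm4* showed the largest changes of the members, with a rise in mature neutrophils (2.60 ± 0.09), NK cells (1.68 ± 0.12), monocytes (1.65 ± 0.08), pro-B or pre-B cells (1.31 ± 0.08), mature B cells (1.27 ± 0.11), plasmacytoid dendritic cells (0.84 ± 0.10), and T cells (0.82 ± 0.17), and a fall in erythroid progenitors (-4.23 ± 0.17), erythroblasts (-3.26 ± 0.25), stem or early progenitor cells (-1.86 ± 0.27), and basophils or mast cells (-1.23 ± 0.33).

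*Tpm3* rose in 7 classes and fell in 6, and *Tpm3-rs7* rose in 5 and fell in 4. Both genes of the pair fell in pro-B or pre-B cells (*Tpm3* -0.16 ± 0.07, *Tpm3-rs7* -0.21 ± 0.09), a direction that depended on scaling. Neither passed there once simulated doublets were removed (-0.042 and -0.094). Both also fell in erythroblasts (*Tpm3* -1.99 ± 0.11, *Tpm3-rs7* -2.11 ± 0.18), erythroid progenitors (-1.78 ± 0.08 and -1.74 ± 0.10), and plasma cells (-0.69 ± 0.12 and -0.44 ± 0.16), and rose in immature neutrophils (1.54 ± 0.06 and 1.40 ± 0.07), mature neutrophils (1.495 ± 0.07 and 1.42 ± 0.09), granulocyte-monocyte precursors (0.50 ± 0.06 and 0.30 ± 0.08), macrophages (0.44 ± 0.10 and 0.61 ± 0.14), and monocytes (0.32 ± 0.06 and 0.53 ± 0.08). With at most 5% mitochondrial UMIs *Tpm3* instead fell in monocytes by 0.18 on the log2 scale, and *Tpm3-rs7* did not pass in monocytes (0.12, adjusted p = 0.190) or in granulocyte-monocyte precursors (0.025, adjusted p = 0.925, edgeR). In the latter it did not pass with the size factors of DESeq2 either (0.018, adjusted p = 0.858, edgeR). In plasma cells it did not pass once simulated doublets were removed (-0.38, adjusted p = 0.0539, edgeR). Without the mouse as a block it passed in none of monocytes, macrophages, granulocyte-monocyte precursors, and plasma cells (adjusted p = 0.198 to 0.841, edgeR). *Tpm1* and the *Tpm3* pair thus moved in opposite directions in erythroid cells and in neutrophils. The sizes depended on scaling. The TMM factor, which scales a library by its bulk of genes, averaged 0.530 in immature and 0.563 in mature neutrophils and 0.548 in plasma cells, and 0.952 to 1.32 in the other classes. Scaling by total UMIs alone moved the median of all genes by -1.24 to 0.43 on the log2 scale depending on the class. With it *Tpm3* rose by 0.57 in immature and 0.60 in mature neutrophils, and *Tpm4* was lower in immature neutrophils (adjusted p = 1.40e-18, edgeR), where it did not pass with TMM. In pro-B or pre-B cells the direction of *Tpm1*, *Tpm3*, and *Tpm3-rs7* flipped between the scalings, as did that of *Tpm3* in plasmacytoid dendritic cells and stem or early progenitor cells. The median of all genes moved by 0.43, 0.41, and 0.42 in these classes and by -0.93 in immature neutrophils, so the members moved with the other genes and the flips are not particular to them.

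The strain differences themselves differed between classes for *Tpm3*, *Tpm4*, and *Tpm1*. A single fit over the 15 classes tested all terms of class by strain together, and gave F = 3.15 for *Tpm3* (adjusted p = 5.53e-05), F = 2.52 for *Tpm4* (adjusted p = 0.0021), and F = 2.31 for *Tpm1* (adjusted p = 0.00623, edgeR, 28 degrees of freedom). Of the 8663 genes in this fit 13.7% passed. None of the 3 passed with at least 2000 UMIs and 1000 genes per cell, and 1 of them with at most 5% mitochondrial UMIs.

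Classes with few cells are given as summed levels without a test. Megakaryocytes, the cells that shed platelets, numbered 68 in 8 of the 9 mice, and only 2 mice had 10 or more. *Tpm4* was at 578 CPM over their summed UMIs, *Tpm1* at 398, *Tpm3* at 211, *Tpm3-rs7* at 144, and *Tpm2* at 76.9 CPM. *Tpm1* ranged from 172 to 677 CPM over the 8 mice, with a median of 338, and was above its highest mean among the 15 classes, 106 CPM, in 8 of 8. *Tpm4* ranged from 104 to 1122 CPM, with a median of 433, and was above its highest class mean, 178 CPM, in 7 of 8. Megakaryocytes thus had the highest levels of both genes, on 202 and 293 UMIs. In 101 conventional dendritic cells *Tpm3* was at 370 CPM, *Tpm4* at 145, *Tpm3-rs7* at 72.6, and *Tpm1* at 39.9 CPM.

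Genes that act on the same filament were read from a list of 31 actin partner genes, of which 21 could be measured, in 245 tests over gene and class. Between NZB and NZW 27 tests passed by edgeR (11.02%, against 8.98% of all genes), 18 higher and 9 lower in NZB, and the median log2 fold change was 0.02. *Myl12a*, a light chain of nonmuscle myosin, was higher in NZB monocytes (0.80 ± 0.12) and passed in 6 of 15 classes. *Dstn*, which severs and depolymerizes actin filaments, was higher in immature neutrophils (0.68 ± 0.11), as was *Capza2*, a subunit of capping protein (0.47 ± 0.11). *Cnn3*, a calponin that binds actin, was lower in granulocyte-monocyte precursors (-1.41 ± 0.26) and in 4 of 7 classes. *Tmod1*, the tropomodulin of the red cell that caps the filaments *Tpm1* lies on, was lower in NZB erythroid progenitors at -1.81 ± 0.43 (adjusted p = 0.00521, edgeR). *Tpm1* was lower in this class too. In erythroblasts, the other class tested, *Tmod1* was at -0.84 and did not pass, whereas *Tpm1* did. The cytoplasmic actins *Actb* and *Actg1* passed in 2 of 15 classes each, at 0.26 ± 0.08 for *Actb* in plasmacytoid dendritic cells and 0.66 ± 0.18 for *Actg1* in mature neutrophils. *Tmod3* and the myosin heavy chain *Myh9* passed in none.

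For the hybrid, 0 of the 245 partner tests passed against the mean of its parents' logs, 9 passed against NZB (3.67%, beside 3.77% of all genes), and 4 against NZW (1.63%, beside 1.12%, edgeR), so that the shares were near those of all genes, and the medians were -0.0019, -0.03, and 0.04 on the log2 scale. Of those against NZB, *Cnn3* was higher in erythroid progenitors of NZBWF1 (0.68 ± 0.14), and *Dstn* and *Capza2* were lower in immature neutrophils (-0.44 ± 0.11 and -0.36 ± 0.11), as was *Actn4*, an actinin, in monocytes (-0.47 ± 0.13). Against NZW, *Myl12a* was higher in monocytes (0.60 ± 0.12). *Tmod1* was lower in both classes tested, erythroblasts (-1.08 ± 0.30) and erythroid progenitors (-1.67).

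The genes with the pattern most like each member were found by Pearson correlation among 9193 genes, on log2(CPM + 10), as a description. Over the 15 class means *Tpm3-rs7* (r = 0.981) and *Clic1* (r = 0.981) came closest to *Tpm3*, followed by *Sh3bgrl3*, *Was*, and *Pak2*. *Prkaca* (r = 0.951), *Napa*, *Med19*, *Rnf187*, and *Dcaf8* came closest to *Tpm1*, and *Arfip1* (r = 0.943), *Ankrd44*, *Map4*, and *Zfp36* to *Tpm4*. The class means share the 9 libraries, and those of *Tpm3* and *Tpm3-rs7* may share reads. By strain within classes, over 135 values of class and mouse, *Ftl1* (r = 0.943), *Gm42031* (0.910), *Apobec3* (0.871), *Rps3a1* (0.843), and *BC023719* (0.831) were most like *Tpm3-rs7*. Over all kept cells *Ftl1*, the ferritin light chain, was at 2625 ± 261 CPM in NZB, 72.8 ± 12.0 in NZW, and 1192 ± 39.97 in NZBWF1 (SD, n = 3), so that it too was low in NZW and in between in the hybrid.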

How the data were processed

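Single cell RNA sequencing of femur marrow was done in 9 mice, 1 library each, and the replicates are separate mice. The authors demultiplexed the reads (bcl2fastq 2.20, per the processing notes), counted them with Cell Ranger 3.1.0 against mm10, and merged the libraries into deposited matrices of whole UMI counts over 31053 genes. The annotation, and whether merging thinned the libraries, are not given in the sources used here. Barcode suffixes were read as line numbers of the list of merged libraries. Columns of per-sample values without a mapped mouse numbered 0, and no batch label was found.

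Barcodes were kept with at least 1000 UMIs, 500 genes, and at most 10% mitochondrial UMIs. A cell took the class with the highest mean marker z-score, if that was at least 0.5 and 3 markers were detected. Cells whose score for an unlike class was at least 1 and at least 0.5 of the best were set aside as likely doublets. These limits were set after marker values were seen, and *Chil3* and *Ahsp* could not be used. UMIs were summed per class and mouse (at least 10 cells) and tested with edgeR 4.0.16 in R 4.3.3 (TMM, filterByExpr, robust quasi-likelihood), with Benjamini-Hochberg correction over all genes and a threshold of 0.05. The class fits had the mouse as a block. CPM and shares were computed in Python 3.11.15, and transcripts were aligned with biopython 1.88. Each standard error was obtained from the fold change and its F statistic (log2 scale). The fits were tested on simulated data.

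The members, the partner genes, and the tests were chosen with earlier results of these data known. Of the partner genes, the 4 with the smallest p among those called, and *Actb*, *Actg1*, *Tmod1*, *Tmod3*, and *Myh9*, are named, and of similar patterns the 5 genes with the highest correlation among genes of at least 20 CPM in a class, except a gene that is not reported here. Alternatives covered quality limits, gates, doublets, free RNA (barcodes under 100 UMIs), scaling, filters, DESeq2 1.42.0, blocks, and leaving out each mouse. Scaling by total UMIs was added after the data were seen.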

Additional observations from a re-analysis of the deposited data

Results flagged for a closer look

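The differences between the strains were not the same in every class for 3 of the members, by the joint test of all terms of class by strain in the fit over 15 classes (edgeR). The adjusted p was 5.53e-05 for *Tpm3*, whose log2 fold change of NZB against NZW ran from -1.37 in plasmacytoid dendritic cells to -0.34 in mature neutrophils. It was 0.0021 for *Tpm4*, which ran from -0.26 in pro-B or pre-B cells to 0.86 in mature neutrophils. It was 0.00623 for *Tpm1*, which ran from -0.90 in erythroblasts to 0.53 in NK cells. Of all genes in this fit 13.7% passed. No single pair of classes was tested. With at least 2000 UMIs and 1000 genes per cell the adjusted p was 0.111 for *Tpm3*, 0.127 for *Tpm4*, and 0.185 for *Tpm1* (edgeR), and with at most 5% mitochondrial UMIs it was 0.118 for *Tpm4* and 0.832 for *Tpm1*. Without NZB replicate 3 the adjusted p was 0.0721 for *Tpm4* and 0.0556 for *Tpm1*, and for *Tpm1* it was 0.079 without NZB replicate 2 and 0.0683 without NZW replicate 2.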

How the results depend on the processing

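Of the calls by class, 4 of 16 between NZB and NZW, 1 of 3 between NZBWF1 and NZB, 1 of 5 between NZBWF1 and NZW, and 23 of 42 of a class against the others kept their direction and their side of the threshold under every alternative run. The 4 between NZB and NZW, and the 1 between NZBWF1 and NZW, were of *Tpm3* read apart from its copy. The sum of the pair was not among the alternatives run by class. In mean CPM the sum was higher in NZB than in NZW in granulocyte-monocyte precursors (390 against 348) and monocytes (481 against 416). It was lower in plasmacytoid dendritic cells (327 against 382) and pro-B or pre-B cells (310 against 355). Counts of calls moved by more than 1.5 times as follows. With at least 2000 UMIs and 1000 genes, which left 40.1% to 45.9% of the kept cells of a mouse, they were 10 in place of 16 between NZB and NZW, 0 in place of 3 for the interaction, and 19 in place of 40 for the partner genes over all 4 comparisons. With at most 5% mitochondrial UMIs, which left 66.8% to 76.1% of NZB, 54.5% to 60.6% of NZW, and 53.9% to 60.9% of NZBWF1 cells, they were 3 in place of 5 between NZBWF1 and NZW, 23 in place of 42 for the classes, and 1 in place of 3 for the interaction. With Leiden clusters they were 2 in place of 0 against the mean of the parents' logs, 5 in place of 3 between NZBWF1 and NZB, and 88 in place of 40 for the partners. DESeq2 gave 1 in place of 3 between NZBWF1 and NZB, and 25 in place of 40 for the partners. Without the filter on low counts there were 8 in place of 5 between NZBWF1 and NZW. Mice of 2 strains with the same number deviated together little (median r over the classes 0.019 to 0.142, above 0.1 in 1 pair). For mice with unlike numbers the median r ran from -0.084 to 0.041, so the ranges overlapped, but only pairs with unlike numbers had values below 0. The numbers were not taken as pairs in the main fits. With the replicate number as a block there were 5 in place of 3 between NZBWF1 and NZB, and the calls of *Tpm2* in all cells (adjusted p = 0.0606) and of *Tpm1* in erythroid progenitors between NZBWF1 and NZW (0.06) were lost (edgeR). The causes were not tested.

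Leaving out 1 mouse gave 0 to 1 calls against the mean of the parents' logs, 11 to 15 between NZB and NZW, 1 to 4 between NZBWF1 and NZB, 3 to 7 between NZBWF1 and NZW, 37 to 42 for the classes, 1 to 3 for the interaction, and 20 to 50 for the partners. The median share of *Tpm3-rs7* over the classes moved between 46.5% and 48.8% in NZB, 1.65% and 2.04% in NZW, and 28.0% and 30.4% in NZBWF1.

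Directions turned as follows, on the log2 scale. *Tpm3* over all kept cells, -0.76 between NZB and NZW in CPM, was 0.12 as a sum with *Tpm3-rs7*. *Tpm4* in immature neutrophils was -0.27 with Leiden clusters. Against the other classes, *Tpm3* in mature B cells was -0.12 with at most 5% mitochondrial UMIs, -0.046 with Leiden clusters, and -0.049 with at least 30 cells. In NK cells it was -0.16 with at most 5% mitochondrial UMIs and -0.0032 with Leiden clusters, and in monocytes -0.18 with the former. In plasmacytoid dendritic cells it was 0.027 with at least 2000 UMIs and 0.21 with total UMIs as the scale. That scale also gave 0.27 for *Tpm3*, 0.24 for *Tpm3-rs7*, and 0.060 for *Tpm1* in pro-B or pre-B cells, and 0.17 for *Tpm3* in stem or early progenitor cells. In these 3 classes the median of all genes moved by 0.41 to 0.43 with it, so the turns are not particular to the members. *Tpm1* in pro-B or pre-B cells was 0.10 with at most 5% mitochondrial UMIs. Between strains scaling by total UMIs moved the median of all genes by -0.72 to 0.30 on the log2 scale over the classes and comparisons, and *Tpm4* in mature neutrophils then had an adjusted p of 0.0601 and *Tpm3* in macrophages one of 0.0982 (edgeR). Of the class calls of *Tpm1* and *Tpm4*, those of *Tpm1* in NK and plasmacytoid dendritic cells did not pass with at least 2000 UMIs. Those of *Tpm1* in monocytes and of *Tpm4* in pro-B or pre-B cells and T cells did not pass with at most 5% mitochondrial UMIs. Those of *Tpm4* in plasmacytoid dendritic cells, stem or early progenitor cells, and T cells did not pass with Leiden clusters. Depth limits *Tpm2* most, with 366 UMIs in 39051 cells.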
